A study of Homo sapiens with 2 samples.

Results

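The genes described here hold an epithelial sheet together and give its cells an apical and a basal side. They were taken as a list of 42 genes in 6 classes, namely adherens, tight junction, desmosome, polarity, keratins and epithelial regulators, from a table of 11420 gene records, and 40 of the 42 were analysed. Of these, 39 were found by gene symbol, and AFDN was found by its gene identifier under its older symbol MLLT4. CLDN1 and CLDN3 were not analysed here. The mRNA came from HCT116, an established human colorectal carcinoma cell line, 96 hr after lentiviral infection with LAST shRNA or control shRNA. LAST is a long noncoding RNA induced by c-Myc. Its own level was not analysed here and cannot serve as a check of the labels, and the sequencing asked which mRNAs change when it is depleted. There was 1 library with LAST shRNA, made with 1 of the study's hairpins against this RNA, and 1 library with control shRNA. No value below therefore has a replicate check, and no SD, interval or test can be given.

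Levels are FPKM, fragments counted per length of transcript and per depth of library. For each log2 ratio, 1 was added to both FPKM values and the log2 value of the control shRNA library was taken from that of the LAST shRNA library. Weakly expressed genes come out smaller on this scale than their fold. A gene is described as higher at a log2 ratio of 0.58 or above and as lower at -0.58 or below, the threshold of the study. Summed FPKM over all records was 155390 with LAST shRNA against 154798 with control shRNA, and the number of reads behind the values is unknown. In such a bulk measurement, a smaller share of cells that express a gene and less mRNA per cell cannot be told apart. Of 13 markers of intestinal epithelium, EPCAM, CDH1, KRT8, KRT18 and KRT19, all also members, were above an FPKM of 10 in both libraries. KRT20 was low, at an FPKM of 3.62 with LAST shRNA against 0.767 with control shRNA (log2 ratio 1.39). It was the only analysed marker of this list past the threshold. CDX2, the intestinal homeobox factor, was near the floor at an FPKM of 1.02 with LAST shRNA against 1.58 with control shRNA, and 6 of the 13 were not analysed here. Among markers of stroma, blood and endothelium, COL1A1 (FPKM 1.90 with LAST shRNA against 1.32 with control shRNA) and CD68 (3.26 with LAST shRNA against 1.58 with control shRNA) were the only ones with a value, and the part of other cells in the results below was not tested.

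Epithelial cells are joined from the apical side down by tight junctions, which seal the space between cells, by adherens junctions, which couple the actin belts of neighbours through cadherins and catenins, and by desmosomes, which couple their keratin filaments. The Par, Crumbs and Scribble complexes set where these junctions form. In carcinoma cells, loss of this set together with gain of mesenchymal genes is known as epithelial-mesenchymal transition.

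Most of the epithelial genes lay between the thresholds, and 4 did not. Of the 40 genes 2 were higher with LAST shRNA, F11R and PARD6B, against a background of 6.80% of all records that were higher. Another 2 were lower, KRT80 and MARVELD3, against a background of 5.88% of all records. These shares, 2 of 40 in each direction, are near the background and set the list apart in neither direction. The other 36 lay between the thresholds, 20 of the 40 ratios were above 0 and 20 were below, and the median was 0.0099, beside 0.0085 over all records. Within 0.25 of 0 lay 29 of the 40 members (72.5%), beside 61.5% of all records. The members were also more highly expressed, with a median FPKM of 10.5 with LAST shRNA and 8.65 with control shRNA. Over all records these medians were 5.25 and 5.20, and the part of level in the shares near 0 was not tested. Members summed to an FPKM of 1407 with LAST shRNA and of 1317 with control shRNA.

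**Figure D1:**
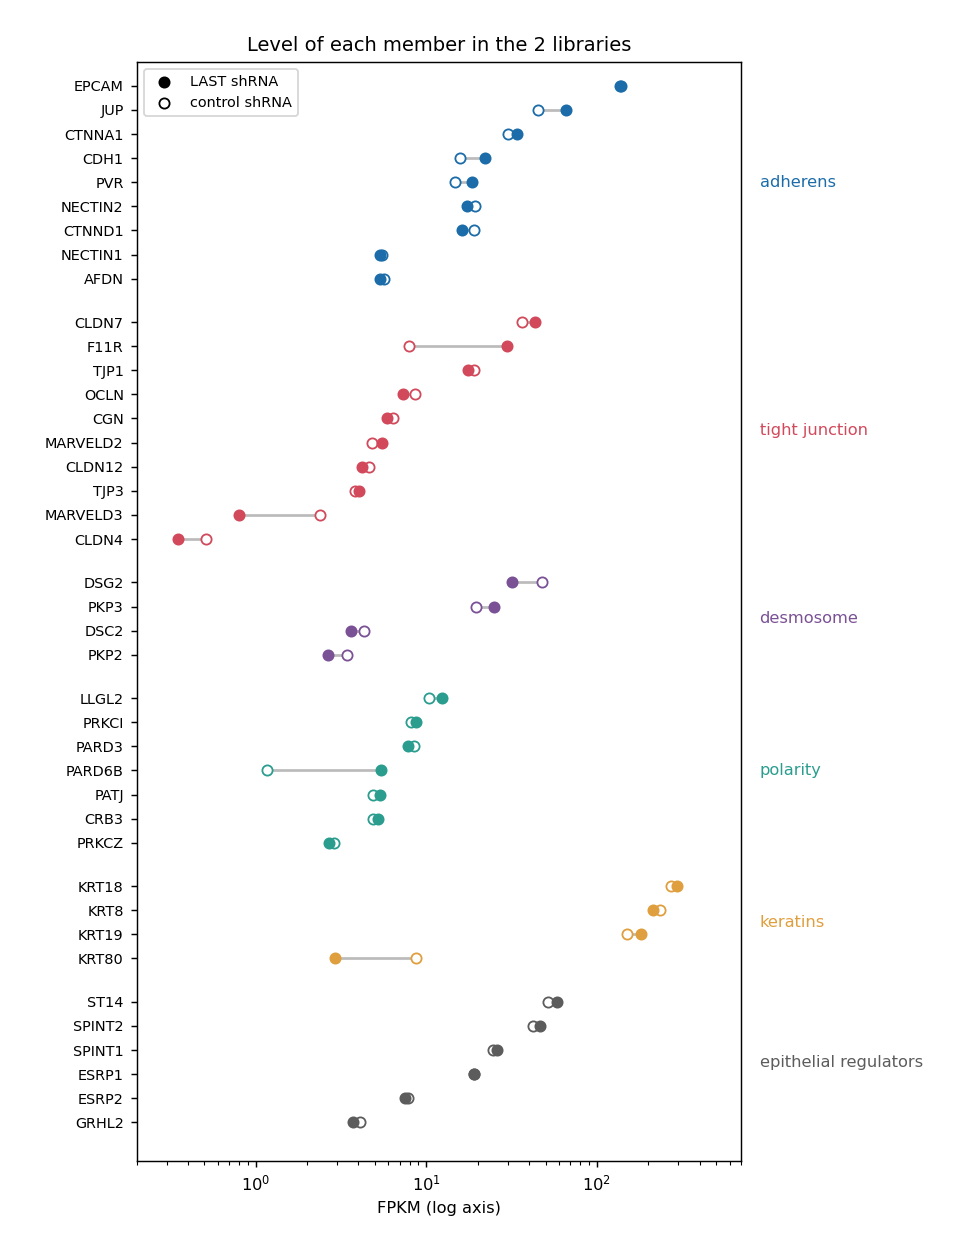
FPKM of the 40 analysed members on a log axis, with 1 filled point for the LAST shRNA library and 1 open point for the control shRNA library per gene, ordered by level within each class. The points of most genes nearly coincide, while those of F11R (29.7 with LAST shRNA, 7.96 with control shRNA), PARD6B (5.41 with LAST shRNA, 1.16 with control shRNA), KRT80 (2.93 with LAST shRNA, 8.74 with control shRNA) and MARVELD3 (0.798 with LAST shRNA, 2.37 with control shRNA) lie far apart.

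Adherens junction genes all lay between the thresholds, with 0 of 9 higher and 0 of 9 lower and a median log2 ratio of 0.02. EPCAM, an adhesion molecule of epithelia and the highest member of this class, was at an FPKM of 139 with LAST shRNA against 137 with control shRNA (0.02). CDH1, the E-cadherin gene, was at 22.0 with LAST shRNA against 15.8 with control shRNA (0.45). JUP, the gene of plakoglobin, a catenin of both adherens junctions and desmosomes, was at 65.6 with LAST shRNA against 45.1 with control shRNA (0.53). This was the highest ratio just inside the threshold. The other catenins differed less: CTNNA1, whose product links the cadherin complex to actin, was at 33.8 with LAST shRNA against 30.3 with control shRNA (0.16), and CTNND1, which holds cadherin at the membrane, was at 16.2 with LAST shRNA against 19.0 with control shRNA (-0.22). CTNNB1, the beta-catenin gene and not itself a member, was at 53.9 with LAST shRNA against 53.8 with control shRNA. Among the nectins, which start cell contacts, NECTIN1 was at 5.38 with LAST shRNA against 5.52 with control shRNA (-0.03) and NECTIN2 at 17.4 with LAST shRNA against 19.2 with control shRNA (-0.13). PVR, a nectin-like receptor, was at 18.4 with LAST shRNA against 14.7 with control shRNA (0.31), and AFDN, which ties nectins to actin, was at 5.32 with LAST shRNA against 5.65 with control shRNA (-0.07). CDH1 and CDH3, the P-cadherin gene, both had values above their controls, and their summed FPKM was 46.6 with LAST shRNA against 36.5 with control shRNA.

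Of the tight junction genes 1 of 10 was higher, 1 of 10 was lower, and the median log2 ratio was -0.10. The other 8 lay within 0.25 of 0. F11R encodes JAM-A, an immunoglobulin-like adhesion molecule that recruits the Par complex to young contacts. It was 3.73-fold higher, at an FPKM of 29.7 with LAST shRNA against 7.96 with control shRNA (log2 ratio 1.78), and ranked 93rd from the top among the 11420 records. F11R (ENSG00000158769.17_2) lay on chromosome 1 from 160965001 to 160991138 in hg19, on the minus strand. It shares that strand and most of its length with a second record, RP11-544M22.13 (160967747 to 161008752), which went the other way, at 0.587 with LAST shRNA against 9.94 with control shRNA (-2.79). The FPKM of both records together was 30.3 with LAST shRNA against 17.9 with control shRNA, a 1.69-fold difference (log2 ratio 0.73), in place of 3.73-fold for F11R alone. This sum was formed after the values were seen, and it adds FPKM scaled to different transcript lengths. TSTD1, which overlaps RP11-544M22.13 but not F11R, was at 16.2 with LAST shRNA against 16.5 with control shRNA. How fragments were shared between F11R and RP11-544M22.13 was not tested.

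MARVELD3, a membrane protein of tight junctions, was 2.97-fold lower, at an FPKM of 0.798 with LAST shRNA against 2.37 with control shRNA (log2 ratio -0.91). Both values are low, and MARVELD3 was the lower member that an FPKM minimum of 1 in both libraries removes. Its record (ENSG00000140832.9_1) lay on chromosome 16 from 71660064 to 71676017 in hg19, on the plus strand, and overlapped PHLPP2 on the opposite strand, which was at 1.46 with LAST shRNA against 1.21 with control shRNA. Its relatives of the same MARVEL family lay between the thresholds: OCLN, the occludin gene, was at 7.26 with LAST shRNA against 8.56 with control shRNA (-0.21), and MARVELD2, whose product tricellulin seals the points where several cells meet, was at 5.50 with LAST shRNA against 4.79 with control shRNA (0.17). The 3 genes summed to 13.6 with LAST shRNA against 15.7 with control shRNA. CLDN7 was by far the highest claudin analysed among the members, at 43.3 with LAST shRNA against 36.6 with control shRNA (0.24), whereas CLDN12 was at 4.21 with LAST shRNA against 4.63 with control shRNA (-0.11). CLDN4 was barely detected, at 0.349 with LAST shRNA against 0.508 with control shRNA, so nothing can be read from its ratio of -0.16. The genes of the cytoplasmic plaque had ratios near 0: TJP1, the main zonula occludens scaffold, was at 17.5 with LAST shRNA against 19.1 with control shRNA (-0.12), TJP3 at 4.04 with LAST shRNA against 3.82 with control shRNA (0.07), and CGN, the cingulin gene, at 5.91 with LAST shRNA against 6.38 with control shRNA (-0.10). Beside F11R, the records of PVR, CLDN12 and SPINT2 also overlap another record on their own strand, so their values may depend on how fragments were shared.

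The desmosome class was small, and 3 of its 4 genes had ratios below 0, with a median of -0.24 and none past the threshold. Over all records 5560 of 11420 had ratios below 0. Of the desmosome genes 2, PKP2 and PKP3, had no exon of 50% or more of the transcript. Their median of 0.030 lies between ratios of opposite sign, -0.28 and 0.34. DSG2, the desmosomal cadherin of simple epithelia, was at an FPKM of 31.9 with LAST shRNA against 47.6 with control shRNA (-0.56), the lowest ratio just inside the threshold, and at -0.582 with TPM in place of FPKM it lay just past it. Its partner cadherin DSC2 was at 3.61 with LAST shRNA against 4.29 with control shRNA (-0.20). The armadillo proteins that anchor them diverged, since PKP2 was at 2.66 with LAST shRNA against 3.43 with control shRNA (-0.28) and PKP3 at 25.0 with LAST shRNA against 19.6 with control shRNA (0.34). Of 11 other desmosome genes 6 were analysed, and 5 of the 6 had ratios below 0, with a median of -0.29. Only EVPL, the gene of the plakin envoplakin, was past the threshold among them, at 5.79 with LAST shRNA against 9.25 with control shRNA (-0.59). DSP, the desmoplakin gene, was at 43.3 with LAST shRNA against 40.3 with control shRNA (0.10). DSP and PKP4 (-0.04) had a largest exon under 50% of the longest coding transcript. DSC3 (-0.50), PERP (-0.14), PPL (-0.44) and EVPL had one above 50%.

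**Figure D2:**
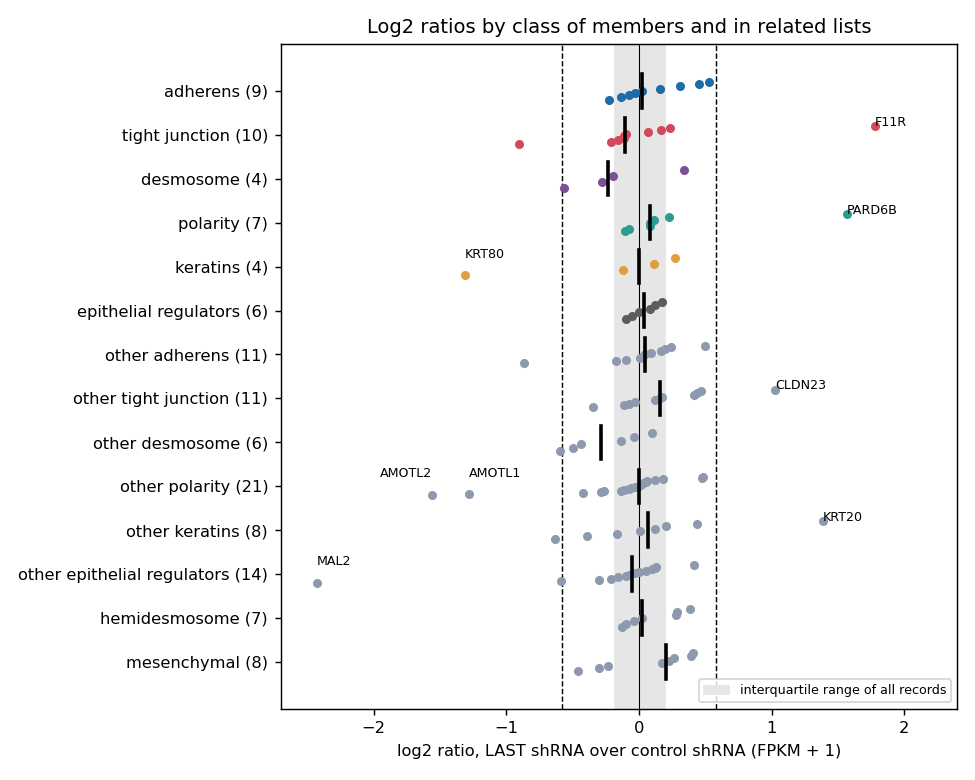
Log2 ratio of each gene, 1 point per gene, in the 6 classes of members (coloured) and in 8 related lists (grey), with the number of genes analysed after each name, the median as a black bar, the thresholds of 0.58 and -0.58 as dashed lines and the interquartile range of all records (-0.18 to 0.20) shaded. Most points fall between the dashed lines in every list, and the desmosome lists have the lowest medians, -0.24 and -0.29.

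Of the polarity genes 1 of 7 was higher, 0 were lower, and the median log2 ratio was 0.08. PARD6B, an adaptor that brings atypical protein kinase C under the control of the GTPase CDC42, was 4.64-fold higher, at an FPKM of 5.41 with LAST shRNA against 1.16 with control shRNA (1.57). The control value is low, so the fold rests on a small number. PARD6B (ENSG00000124171.8_1) lay on chromosome 20 from 49348081 to 49373332 in hg19, on the plus strand, and overlapped no other record. Its paralogs had smaller ratios, with PARD6A at 2.58 with LAST shRNA against 1.57 with control shRNA (0.48) and PARD6G at 4.94 with LAST shRNA against 4.46 with control shRNA (0.12). PARD6B thus made up 41.8% of the summed FPKM of the 3 paralogs with LAST shRNA and 16.2% with control shRNA, and the sum was 12.9 with LAST shRNA against 7.20 with control shRNA. The partners of the PARD6 proteins had ratios near 0. PARD3, the scaffold of the Par complex, was at 7.82 with LAST shRNA against 8.49 with control shRNA (-0.11), and of the atypical kinase genes PRKCI was at 8.66 with LAST shRNA against 8.12 with control shRNA (0.08) and PRKCZ at 2.68 with LAST shRNA against 2.87 with control shRNA (-0.07). CDC42 itself was at 78.6 with LAST shRNA against 78.1 with control shRNA (0.01).

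The other polarity complexes also lay near 0. CRB3, the Crumbs protein of most epithelia, was at an FPKM of 5.20 with LAST shRNA against 4.87 with control shRNA (0.08). PATJ, a multi-PDZ scaffold of the Crumbs complex, was at 5.35 with LAST shRNA against 4.87 with control shRNA (0.11), and PALS1, which bridges CRB3 and PATJ and is listed under the symbol MPP5, was at 4.88 with LAST shRNA against 4.75 with control shRNA (0.03). LLGL2, which opposes the apical kinase from the lateral side, was the highest polarity gene among the members, at 12.4 with LAST shRNA against 10.4 with control shRNA (0.23). Outside the members, 21 of 26 other polarity genes were analysed, with 0 higher, 2 lower and a median of 0.0031. Those 2 were paralogs, AMOTL2 at 5.78 with LAST shRNA against 19.0 with control shRNA (-1.56) and AMOTL1 at 2.71 with LAST shRNA against 8.02 with control shRNA (-1.28). Both encode angiomotin-like scaffolds, a family that binds PATJ at cell junctions. AMOT, the angiomotin gene, went the other way but lay between the thresholds, at 0.963 with LAST shRNA against 0.409 with control shRNA (0.48). Both of its values are low.

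Simple-epithelial keratins were the most abundant members, and the pair that fills the cytoplasm of such cells had ratios near 0. KRT18 was at an FPKM of 294 with LAST shRNA against 271 with control shRNA (0.12), and its partner KRT8 at 215 with LAST shRNA against 234 with control shRNA (-0.12). KRT19, a further type I keratin, was at 182 with LAST shRNA against 151 with control shRNA (0.27). Keratin filaments need type I and type II chains in equal number. The FPKM of KRT8, the type II chain among these, was 0.451 of that of KRT18 and KRT19 together with LAST shRNA and 0.554 of it with control shRNA. This ratio is of mRNA and leaves out the other keratins, and the numbers of protein chains were not measured here. KRT8 and KRT18 have processed pseudogenes and overlap each other at their ends on opposite strands, and whether strand was used in counting is not given in the sources used here, so their small opposite ratios are uncertain.

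KRT80, a type II keratin made at lower levels than these, was 2.98-fold lower, at an FPKM of 2.93 with LAST shRNA against 8.74 with control shRNA (-1.31), and ranked 162nd from the bottom among all records. KRT80 (ENSG00000167767.13_1) lay on chromosome 12 from 52562780 to 52585784 in hg19, on the minus strand, and overlapped no other record. Among 8 other keratins analysed of 17 listed, KRT20, the keratin of differentiated intestinal cells, was 4.72-fold higher, at 3.62 with LAST shRNA against 0.767 with control shRNA (1.39). KRT81, a hair keratin, was lower, at 0.521 with LAST shRNA against 1.35 with control shRNA (-0.63). KRT23, KRT15, KRT10, KRT13, KRT7 and KRT222 lay between the thresholds.

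The epithelial regulators were the tightest class, with 6 of 6 between -0.10 and 0.17. ESRP1, the splicing factor that sets epithelial exon choice, was at an FPKM of 18.9 in both libraries (-0.00084), the smallest ratio among the members. Its paralog ESRP2 was at 7.53 with LAST shRNA against 7.85 with control shRNA (-0.05). GRHL2, a grainyhead transcription factor that activates junction genes, was at 3.74 with LAST shRNA against 4.07 with control shRNA (-0.10). ST14, the gene of the membrane protease matriptase, was the highest of this class, at 58.5 with LAST shRNA against 51.7 with control shRNA (0.17). The inhibitors of matriptase had ratios near 0, with SPINT1 at 26.0 with LAST shRNA against 24.5 with control shRNA (0.08) and SPINT2 at 46.3 with LAST shRNA against 42.4 with control shRNA (0.12). The FPKM of ST14 was 0.809 of that of both inhibitors together with LAST shRNA and 0.773 of it with control shRNA.

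Of 16 other epithelial regulators 14 were analysed, with 0 higher, 2 lower and a median of -0.05. MAL2, a membrane protein of transport to the apical surface, had the lowest ratio of any gene in the related lists, 5.65-fold lower at an FPKM of 16.4 with LAST shRNA against 92.5 with control shRNA (-2.43). RAB25, an epithelial GTPase of recycling endosomes, was just past the threshold, at 16.9 with LAST shRNA against 25.9 with control shRNA (-0.59). The factors KLF5, EHF, ELF3 and OVOL1 had log2 ratios of -0.03, -0.08, 0.05 and 0.0013.

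Few of the mesenchymal genes were analysed. Of 21 listed, 8 were analysed, with 0 higher and 0 lower and a median of 0.20. VIM, CDH2, ZEB1, ZEB2 and SNAI2 were not analysed here. SNAI1, the Snail repressor of CDH1, was at an FPKM of 6.88 with LAST shRNA against 4.93 with control shRNA (0.41), and FN1, the fibronectin gene, at 3.24 with LAST shRNA against 2.23 with control shRNA (0.39).

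Snail and ZEB factors bind E-boxes with the letters CAGGTG, or CACCTG on the other strand, and such boxes stand near the starts of several member genes. RefSeq promoter windows in GRCh38.p14, from 250 bases before a start to 50 after it, were at hand for 23 of the 42 genes, in 38 windows since some genes have several starts. None of the 4 genes past the threshold had one. At least 1 E-box of either form was present in 16 of the 38 windows (42.1%), beside 20.6% of all 35116 promoter windows. Over genes, 14 of the 23 had one in a window. No such count over all genes was formed, and a gene with several windows has more chances of a box. Windows of 1 gene can overlap, and the shares were not tested against each other. A match describes letters and not binding. The stretches below come from AFDN and PRKCZ, which hold several boxes, and from PVR and DSC2, which hold 1 each and had unlike ratios (0.31 and -0.20). They show what such boxes look like in genes that lay between the thresholds. Each is written 5′ to 3′ along its gene, upstream of the start and outside annotated exons, with the E-boxes in capitals. The AFDN stretch is chr6:167827475-167827634 on the plus strand, that of PRKCZ chr1:2050197-2050356 on the plus strand, that of PVR chr19:44643713-44643738 on the plus strand and that of DSC2 chr18:31102562-31102587 on the minus strand.
AFDN: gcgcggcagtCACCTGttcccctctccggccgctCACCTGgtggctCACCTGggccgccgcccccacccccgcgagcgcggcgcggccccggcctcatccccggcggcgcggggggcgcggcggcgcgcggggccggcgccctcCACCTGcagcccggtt
PRKCZ: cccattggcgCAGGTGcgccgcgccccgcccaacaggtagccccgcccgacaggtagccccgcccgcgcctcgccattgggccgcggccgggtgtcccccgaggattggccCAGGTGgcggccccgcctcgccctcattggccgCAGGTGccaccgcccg
PVR: tccgtttcctCACCTGgaatgtgggc
DSC2: aactttctgtCAGGTGggcctcaggc

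In the AFDN stretch the 4 E-boxes begin between positions -150 and -16 relative to the start, and in the PRKCZ stretch the 3 E-boxes begin between positions -204 and -70. PRKCZ has 4 windows, of which 2 hold no E-box, and its FPKM is that of the whole gene and not of 1 start.

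Other contacts of the cell were looked at for comparison. Of 7 hemidesmosome genes none was past the threshold, and their median was 0.03. Of 16 further adherens genes 11 were analysed, and VCL, the gene of vinculin, which strengthens junctions under tension, was the 1 past the threshold, at an FPKM of 24.2 with LAST shRNA against 44.9 with control shRNA (-0.87). Of 28 further tight junction genes 11 were analysed, and 1 was higher, CLDN23, at 1.04 with LAST shRNA and listed at 0 with control shRNA. Over the other genes of the member classes together, the median was 0.0042. Of these 71 genes 2 were higher and 7 were lower, beside 6.80% higher and 5.88% lower among all records. The difference between these counts and those of the members was not tested.

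**Figure D3:**
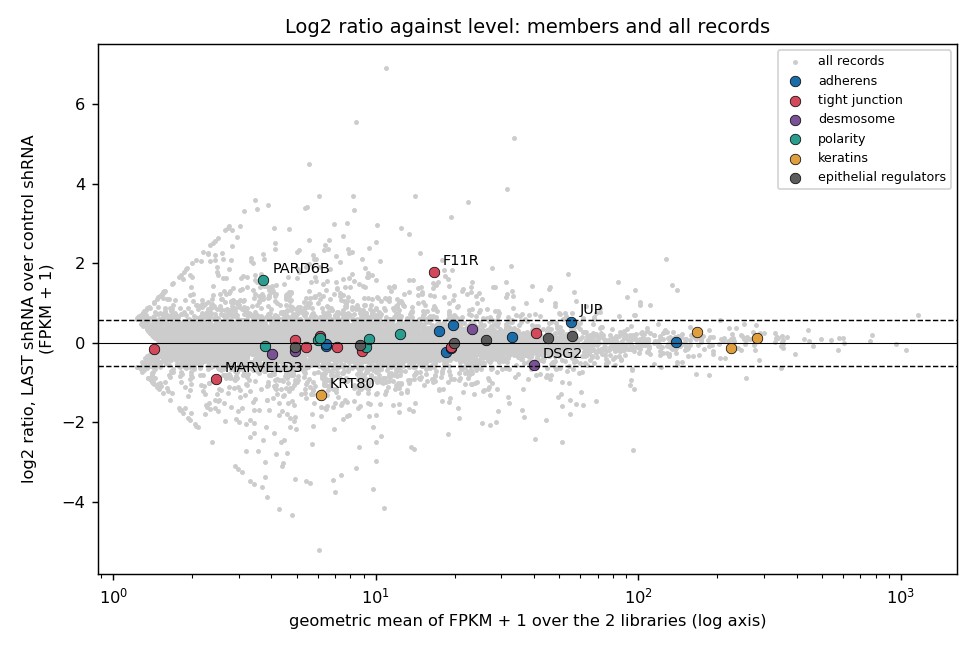
Log2 ratio against the geometric mean of FPKM + 1 over the 2 libraries on a log axis, with all 11420 records in grey, the 40 members coloured by class and the thresholds of 0.58 and -0.58 as dashed lines. F11R and PARD6B stand above and KRT80 and MARVELD3 below the dashed lines, JUP and DSG2 lie just inside them, and the abundant keratins lie near 0.

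The 4 members past the threshold had a longest coding transcript dominated by 1 exon, as did other members. In GENCODE 29, the largest exon held 76.4% of the longest coding transcript in F11R, 88.5% in PARD6B, 65.8% in KRT80 and 78.1% in MARVELD3. In classes of this share from under 20% to 80% or more, the percentage of all records past the threshold in either direction was 2.93, 6.37, 11.9, 15.3 and 23.0. Of the members, 3 of 7 were past it with a share from 60% to 80%, beside 15.3% of all records, and 1 of 4 with a share of 80% or more, beside 23.0%. These are few genes, and the relation was looked for after the values had been seen. Among members with a share under 50%, 0 of 23 were higher and 0 were lower, against a background of 3.89% higher and 3.11% lower among all records of that kind. Members with a large share and a ratio near 0 also occurred, such as CLDN12 (92.9%, log2 ratio -0.11) and NECTIN1 (73.7%, -0.03). The absence of calls under 50% held for the members only. In the related lists, AMOTL2 (41.7%, log2 ratio -1.56) and KRT20 (29.8%, 1.39) were past the threshold with shares under 50%, as were RAB25 and KRT81. AMOTL1, MAL2, VCL, EVPL and CLDN23, also past it, had shares above 50%. The share is that of the longest annotated coding transcript (3 exons and 90.9% for KRT8), which need not be the one measured. Why large exons went with large ratios was not tested.

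**Figure D4:**
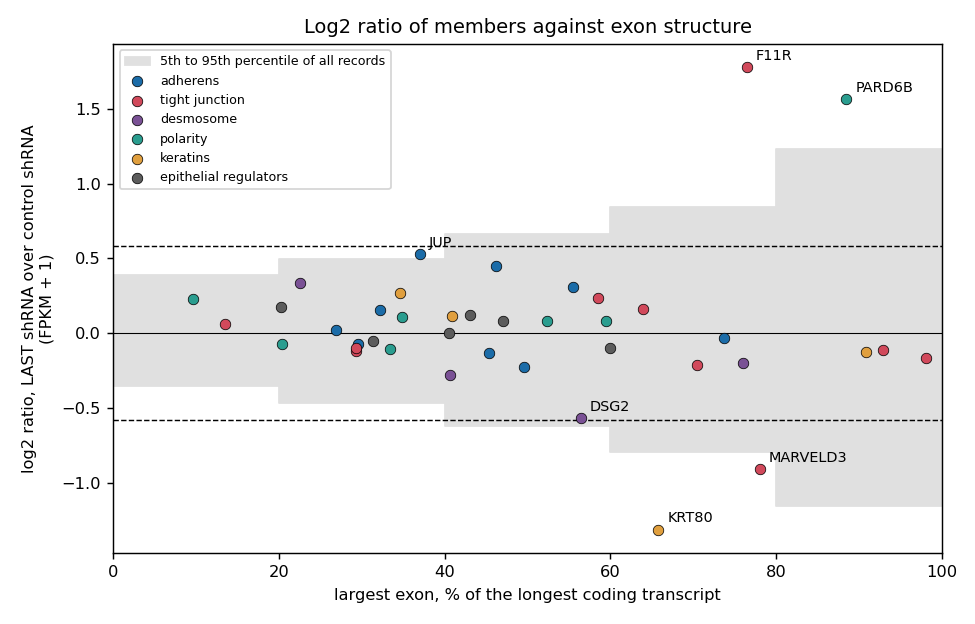
Log2 ratio of the 40 members against the share of the longest coding transcript held by its largest exon, in percent, with the range from the 5th to the 95th percentile of all records in each class of exon share shaded and the thresholds of 0.58 and -0.58 as dashed lines. The shaded range widens to the right, and the 4 members outside the dashed lines all have shares above 60%.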

How the data were processed

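Total RNA, 1 library per group, was sequenced with a KAPA stranded library kit. The submitters' processing notes name cutadapt, FastQC, HISAT2 and StringTie and the build hg19, while no version, setting or use of strand was stated in those sources. The authors deposited FPKM values per protein-coding gene, and in every record the higher library was at 0.5 or more, so that less expressed genes were not analysed here. No counts were used, the depth is unknown, and no interval could be formed.

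The title of each library gave its group. Log2 ratios used a pseudocount of 1 and no further scaling. The members and all lists were chosen with earlier results of these data known. A list of gap junction genes is not reported here. All 42 members were named, and of each related list at most 3 genes per direction that were past the threshold and reached an FPKM of 1 in either library. CTNNB1, CDC42, CDH3, DSP, PALS1, PARD6A, PARD6G, AMOT, SNAI1, FN1 and TSTD1 were named outside that rule, as were genes listed between the thresholds. Exon structure came from GENCODE 29 (GRCh38), joined by gene identifier for 99.1% of records. Positions of records are in hg19, and promoter windows came from RefSeq (GRCh38.p14). Calls were tested on a simulated table before use, which checks the code and not the noise of these libraries. Computations ran in Python 3.11.15 with pandas 2.3.3 and numpy 2.4.6, and plots in matplotlib 3.10.9.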

Additional observations from a re-analysis of the deposited data

How the results depend on the processing

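Of 183 values recomputed under alternative settings, 168 kept their side of the threshold, or stayed within 1.5 times for a count and within 0.1 for a median. The alternatives were other pseudocounts, scalings and filters, a threshold of 1, and the omission of AFDN, which was added after seeing the data. None turned a direction among the 4 members past the threshold, but this is a weak check. A pseudocount cannot change a sign, and a filter leaves the ratio of a gene it keeps as it was. Some of the 183 values therefore could not change. With TPM the DSG2 ratio was -0.582, past the threshold, and 3 members were lower. When both libraries had to reach an FPKM of 1, 1 member was lower, as with a threshold of 1, under which MARVELD3 (-0.91) was no longer past it. Without genes that overlap another record on the same strand, 1 member was higher, since F11R dropped out. Where the largest exon held under 50%, 0 members were higher and 0 were lower, because all 4 have larger exons. The medians were then 0.030 for 2 desmosome genes, PKP2 and PKP3 with ratios of opposite sign, and 0.19 for 2 keratins. Over all records, 1242 were higher with a pseudocount of 0.1 and 1198 with TPM, 318 were higher and 286 lower at a threshold of 1, and 198 were higher and 158 lower with a largest exon under 50%, against 777 and 672. No paired analysis was possible because each group had 1 library. Without replicates or depth, differences of genes at an FPKM of a few, such as MARVELD3 and PARD6B, were not tested against noise.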
